A study of Mus musculus with 8 samples.

Results

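The genes described here make fatty acids, build them into triglyceride and store that triglyceride in lipid droplets. They are 37 genes chosen by name and function, and all 37 were measured, out of 19560 genes on the array. They were sorted into 6 roles: 5 genes of fatty acid synthesis, 3 regulators, 8 elongases and desaturases, 10 genes of triglyceride assembly and export, 2 lipases with a patatin domain, and 9 droplet proteins. RNA came from the livers of 8 male mice aged 6 weeks, with 1 Affymetrix array per mouse. In all 8 mice the kinase TAK1 was deleted in liver parenchymal cells (LPC), which are mainly hepatocytes. In 4 of them, the Tak1/Caspase8 LPC double knockout mice (Tak1/Casp8 below), the apoptosis protease caspase 8 was deleted in the same cells. The other 4, labelled Tak1 LPC-KO/Rip3-/- (Tak1/Rip3 below), lacked the necroptosis kinase RIP3. The study set the groups side by side to tell genes regulated through apoptosis signals from those regulated through necrosis signals. The labels used here do not name the Cre driver or the strain background. Cells outside the LPC keep Tak1 and Casp8, whereas the label Rip3-/- does not limit the loss of RIP3 to the LPC. No liver with intact Tak1 was analysed here. "Higher" therefore always means higher than in the other group, and differences are given as Tak1/Casp8 less Tak1/Rip3.

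In lipogenesis, citrate leaving the mitochondrion is split to acetyl-CoA, carboxylated to malonyl-CoA and assembled to palmitate, which elongases and desaturases then modify. Acyl chains are placed on glycerol 3-phosphate in a sequence of acyltransferase and phosphatase steps that ends in triglyceride, which hepatocytes either export in very low density lipoprotein or keep in droplets coated with perilipin and CIDE proteins. In liver the transcription factors SREBP1c and ChREBP raise the synthetic genes after feeding, whereas several droplet genes are also targets of the PPAR receptors.

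Of the 37 members 8 passed the gene test, which is limma's moderated test with a Benjamini-Hochberg adjusted p under 0.05 over all 19560 genes. Acacb, Fasn, Gpam, Lpin1 and Lpin2 were higher in the Tak1/Casp8 livers, and Mogat2, Plin2 and Cidec were lower. The 8 of 37 are 21.6%, against 6.69% of all genes (2.64% higher and 4.05% lower). In 10 members (27.0%, against 14.6% of all genes) the values of the groups did not overlap, namely these 8 together with Srebf1 and Scd1. Of these, 7 were higher (6.33% of all genes were) and 3 lower (8.3%). The median difference over the 37 was 0.18 on the log2 scale, against 0.01 over all genes. By role, the 5 that were higher belong to fatty acid synthesis (2) and to triglyceride assembly and export (3), and the 3 that were lower to triglyceride assembly and export (1) and the droplet proteins (2). None of the 8 elongases and desaturases passed, and neither lipase did. At an unadjusted p under 0.05, 15 of the 37 members stood out (21.1% of all genes did). The number that passed depended on how probe sets were joined: 9 of 37 passed with their mean (9.22% of all genes) and 3 of 37 with the brightest one (3.88%).

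**Figure D1:**
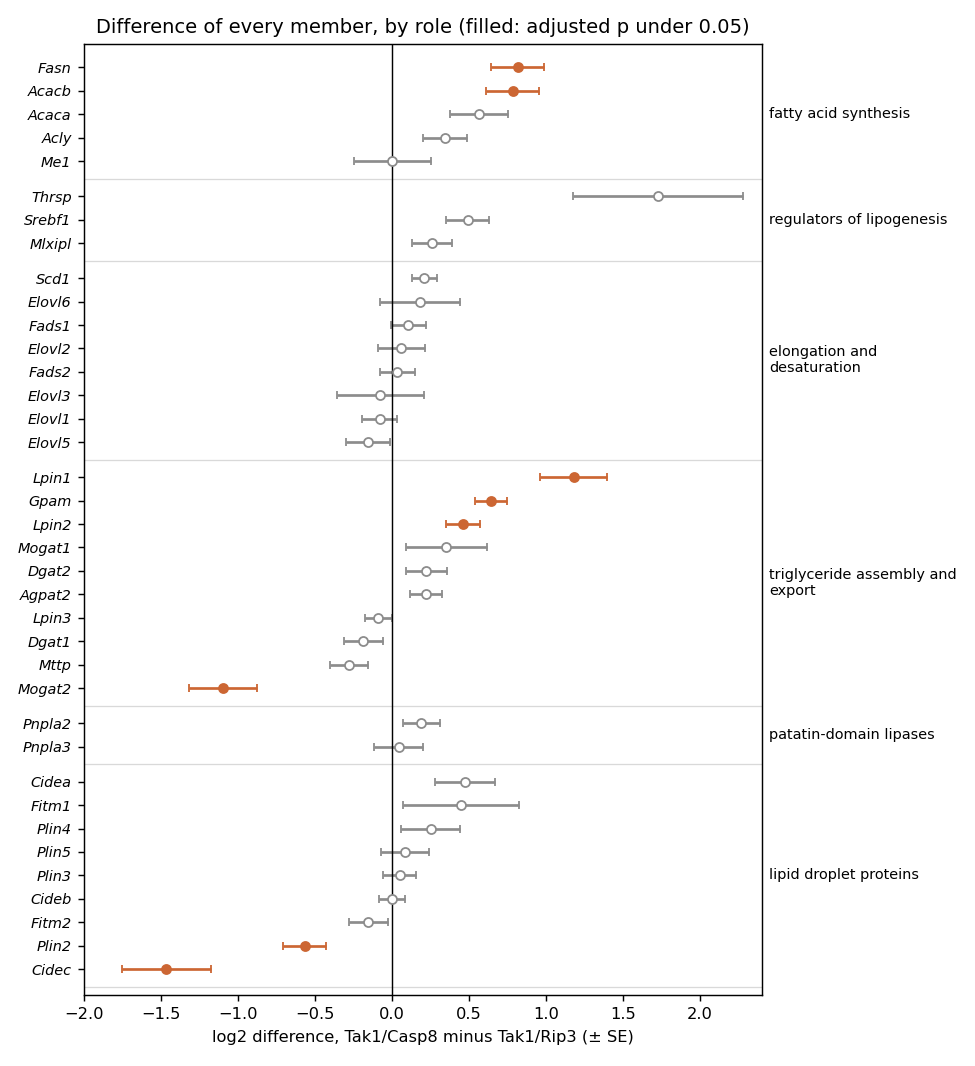
Log2 difference (Tak1/Casp8 minus Tak1/Rip3) of each of the 37 members with its standard error (SE), 4 livers per group, grouped by role and filled where the adjusted p was under 0.05. Differences ran from -1.47 for Cidec to 1.73 for Thrsp, and the filled points on the right are Fasn, Acacb, Lpin1, Gpam and Lpin2, those on the left Mogat2, Plin2 and Cidec.

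The deposited values are log2 intensities normalised by RMA, so 1 unit is a doubling of signal, and a gene's value is the median over its probe sets. Medians of the arrays ran from 8.06 to 8.16 and pairwise correlations from 0.975 to 0.993. Arrays give no read depth, so their number limits the precision. The targeted genes followed the labels: Casp8 was 2.47-fold lower in Tak1/Casp8 livers, Ripk3 was 1.97-fold lower in Tak1/Rip3 livers, and Map3k7, which encodes TAK1 and was targeted in both groups, differed by -0.08, which is no check of its deletion. Of 10 hepatocyte markers, 9 read 12.3 to 14.0 in every array and none of the 10 passed; Ass1, which rests on 1 probe set, read 6.65 to 7.72. In whole tissue, fewer cells of a type cannot be told apart from less RNA per cell.

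The upstream windows of members that moved were inspected because several members of one pathway passed the test. RefSeq promoter windows (assembly GRCm38.p6) were found for 30 of the 37 members, including 7 of the 8 that passed, all but Mogat2. The 250 bases before each start were searched on both strands for short strings. These were TCACNCCAC (core of a sterol regulatory element), CACGTG (an E-box), CCAAT (the box bound by NF-Y) and GGGCGG (the GC box). Only exact matches were counted, so a missing match does not show that a promoter lacks such a site. The following 5 windows are shown, 1 for each member that passed and had at least 1 match. Further windows of Gpam and Lpin2 that also held a match are not shown. Letters in capitals mark the matches on either strand.
Fasn, chr11:120824548-120824797, minus strand: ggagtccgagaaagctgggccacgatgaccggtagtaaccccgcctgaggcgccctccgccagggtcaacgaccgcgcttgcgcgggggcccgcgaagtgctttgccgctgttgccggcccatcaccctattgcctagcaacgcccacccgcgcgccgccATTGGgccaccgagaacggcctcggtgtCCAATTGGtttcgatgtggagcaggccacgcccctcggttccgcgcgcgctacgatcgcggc
Gpam, chr19:55127239-55127488, minus strand: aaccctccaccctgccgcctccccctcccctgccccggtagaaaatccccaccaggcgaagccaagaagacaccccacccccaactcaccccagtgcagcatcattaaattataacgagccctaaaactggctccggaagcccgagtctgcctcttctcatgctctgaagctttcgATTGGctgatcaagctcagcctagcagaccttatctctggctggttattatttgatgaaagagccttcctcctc
Acacb, chr5:114165268-114165517, plus strand: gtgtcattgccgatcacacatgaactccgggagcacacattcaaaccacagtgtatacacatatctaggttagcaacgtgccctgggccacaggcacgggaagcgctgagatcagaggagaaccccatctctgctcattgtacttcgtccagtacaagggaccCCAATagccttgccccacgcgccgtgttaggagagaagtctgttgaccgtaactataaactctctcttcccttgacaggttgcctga
Lpin2, chr17:71183282-71183531, plus strand: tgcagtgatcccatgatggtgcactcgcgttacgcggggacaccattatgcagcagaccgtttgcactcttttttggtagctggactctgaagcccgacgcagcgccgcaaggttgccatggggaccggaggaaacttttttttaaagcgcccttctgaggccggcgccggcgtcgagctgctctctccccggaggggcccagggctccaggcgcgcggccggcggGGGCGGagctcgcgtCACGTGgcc
Plin2, chr4:86670060-86670309, minus strand: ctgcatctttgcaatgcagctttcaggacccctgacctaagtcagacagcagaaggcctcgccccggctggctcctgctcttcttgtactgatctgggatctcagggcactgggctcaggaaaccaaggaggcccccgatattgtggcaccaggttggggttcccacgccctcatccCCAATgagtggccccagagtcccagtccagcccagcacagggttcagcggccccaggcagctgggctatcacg

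The Fasn window held 3 CCAAT matches, beginning 90, 62 and 59 bases before the start, and the last 2 overlap as a palindrome. Gpam, Acacb and Plin2 had 1 each, beginning 74, 87 and 73 bases before the start. Some genes have several windows; the Lpin2 window above holds an E-box and a GC box, and its CCAAT matches lie in another. Counted by gene, 5 of these 7 members (Acacb, Fasn, Gpam, Lpin2 and Plin2) and 15 of the 30 matched members had a CCAAT match. Counted by window, it was found in 5 of 11 windows of these members, in 16 of 42 over all matched members (38.1%) and in 33.8% of all 32851 windows. The E-box of Lpin2 begins 9 bases before the start and its GC box 24, and the E-box was found in 3 of 42 member windows (6.02% of all windows). The sterol element core was found in 1 of the 42, a window of Mlxipl, against 1.05% of all windows, and the GC box in 21 of 42 (32.7% of all). Lpin1 and Cidec held none of the 4 motifs in their windows. CCAAT stood both in windows of members that were higher and in that of Plin2, which was lower.

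In fatty acid synthesis each of the 5 genes had a positive difference (median 0.56). Fasn, fatty acid synthase, which builds palmitate from malonyl-CoA, read 12.06, 12.67, 12.05 and 12.66 in the Tak1/Casp8 livers (replicates 1 to 4) and 11.53, 11.63, 11.29 and 11.74 in the Tak1/Rip3 livers. The groups did not overlap, and Fasn was 1.76-fold higher (log2 difference 0.81 ± 0.17 SE, 4 livers a group, by limma an adjusted p = 0.0192). Acacb, the acetyl-CoA carboxylase of the outer mitochondrial membrane, whose malonyl-CoA restrains fatty acid entry into mitochondria, read 9.36, 9.66, 9.54 and 10.26 against 9.02, 8.78, 9.00 and 8.89. It was 1.72-fold higher (0.78 ± 0.17 SE, limma adjusted p = 0.0241), again with no overlap, and Tak1/Casp8 replicate 4 was the highest liver. Its cytosolic counterpart Acaca, which supplies malonyl-CoA to the synthase, read 9.74, 10.61, 10.08 and 10.38 against 9.55, 9.97, 9.64 and 9.40, so that the groups overlapped through Tak1/Casp8 replicate 1 and Tak1/Rip3 replicate 2. Its difference of 0.56 ± 0.19 SE did not pass (limma adjusted p = 0.107). The difference between both carboxylases (0.22 ± 0.24 SE) did not pass (exact two-sided permutation p = 0.4). Acly, ATP citrate lyase, differed by 0.34 ± 0.14 and Me1, malic enzyme, which supplies NADPH, by 0.00 ± 0.25; neither passed. Me1 spread widely within the Tak1/Casp8 group, from 10.14 to 11.48.

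At the level of single probe sets, each about the size of an exon, the differences of Acacb, Fasn and Acaca were spread over most of their probe sets. All 52 probe sets of Acacb were higher in the Tak1/Casp8 livers, by 0.15 to 1.37, and 45 of the 47 of Fasn were. For Acaca 14 of 15 were higher, 11 of them at an unadjusted p under 0.05, and 1 passed over all probe sets. In that test 2 probe sets of Acacb passed and 0 of Fasn. For Acly 27 of 31 were higher, 6 of them at an unadjusted p under 0.05, and for Me1 11 of 15, with 0 at that level. When the mean over probe sets stood for a gene in place of the median, Acaca passed as well (0.67, limma adjusted p = 0.00383), and with the brighter part of its probe sets the adjusted p was 0.0175. With the brightest probe set alone, Fasn differed by 0.45 (limma adjusted p = 0.114) and Acacb by 0.61 (0.154), and neither passed. Both calls were also close to the threshold when an array was left out. Fasn passed in 5 of 8 such fits and missed the threshold when Tak1/Rip3 replicate 1, Tak1/Rip3 replicate 3 or Tak1/Casp8 replicate 2 was omitted (limma adjusted p = 0.0583, 0.0553 and 0.0562). Acacb passed in 3 of 8, those without Tak1/Casp8 replicate 1, 3 or 4, with an adjusted p of up to 0.0705 in the others.

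**Figure D2:**
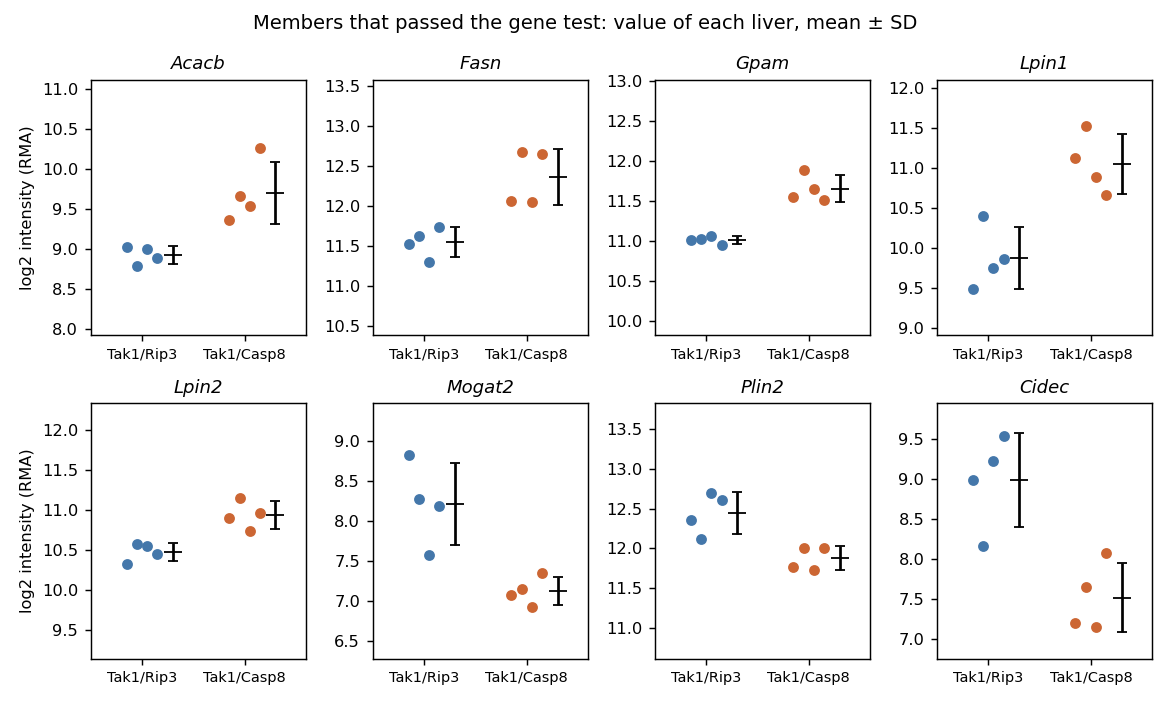
Log2 intensity of the 8 members that passed, 1 point per liver, with the group mean and its standard deviation (SD) drawn to the right of each group; every panel spans the same range of log2 units. In each panel the 4 values of one group lie beyond the 4 of the other, higher in the Tak1/Casp8 livers for Acacb, Fasn, Gpam, Lpin1 and Lpin2 and lower for Mogat2, Plin2 and Cidec.

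The 3 regulators had positive differences and none passed. Srebf1, which encodes SREBP1, read 10.50, 10.49, 10.65 and 10.67 in the Tak1/Casp8 livers and 10.13, 10.48, 9.85 and 9.89 in the Tak1/Rip3 livers. The groups were separate by a narrow margin, between Tak1/Rip3 replicate 2 and the lowest Tak1/Casp8 liver, and the difference was 0.49 ± 0.14 SE (n = 4 per group, limma adjusted p = 0.0672). Without Tak1/Rip3 replicate 2, the highest liver of its group, it passed (0.62, limma adjusted p = 0.0116). Leaving out that liver had to widen the difference, so this pass adds no support. Among the 8 fits that left out an array, Srebf1 passed in this 1 alone (adjusted p up to 0.172 in the others). Srebf1 passed in 6 of 19 alternatives of the processing, and with the brightest probe set it differed by 0.29 (limma adjusted p = 0.477). Of its 20 probe sets 18 were higher. Mlxipl, which encodes ChREBP, read 10.70, 10.97, 10.76 and 11.15 against 10.91, 10.52, 10.61 and 10.52, with overlapping groups and a difference of 0.26 ± 0.13 (limma adjusted p = 0.297).

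Thrsp, which encodes the thyroid hormone responsive protein Spot 14, a factor that follows lipogenic state, had the widest difference of the 37 and a wide spread. It read 9.63, 10.71, 8.99 and 11.14 in the Tak1/Casp8 livers against 8.29, 9.89, 7.57 and 7.83 in the Tak1/Rip3 livers. Tak1/Rip3 replicate 2 lay above 2 of the Tak1/Casp8 livers, and the difference of 1.73 ± 0.55 SE did not pass (limma adjusted p = 0.0963). Without that array, the highest of its group, it was 2.22 and passed (limma adjusted p = 0.0238). Leaving it out had to widen the difference, so this pass adds no support. Thrsp passed in 1 of 8 fits that left out an array, the one without Tak1/Rip3 replicate 2 (adjusted p up to 0.217 in the others). It passed in 3 of 19 alternatives of the processing. The SD within groups was 1.01, above that of 99.9% of genes on the array, where the median was 0.18.

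Chain elongation and desaturation showed no member past the threshold, with a median difference of 0.05 and a range from -0.16 to 0.21. Scd1, the stearoyl-CoA desaturase that makes oleate, read 13.77, 13.74, 13.78 and 13.76 against 13.59, 13.49, 13.56 and 13.59. The groups did not overlap, yet the difference was only 0.21 ± 0.08 SE (n = 4 per group, limma adjusted p = 0.163). All 9 of its probe sets were higher and 8 of the 9 did not overlap. The widest was 0.90, which passed, and with the mean over probe sets the gene passed too (0.32, limma adjusted p = 0.0225). Unlike with that mean, with the brightest probe set it differed by 0.14 (limma adjusted p = 0.381) and with the brighter part of them by 0.12 (0.428). Scd1 passed in 2 of 19 alternatives of the processing, this mean and limma's trend and robust settings (limma adjusted p = 0.0353). It passed in 0 of 8 fits that left out an array (adjusted p 0.193 to 0.279). The mean level of Scd1 lay above that of 99.9% of genes on the array. Elovl6, which extends palmitate to stearate, read 10.60, 11.51, 10.53 and 11.82 against 10.85, 10.89, 10.95 and 11.05. The Tak1/Rip3 livers lay close together and the Tak1/Casp8 livers lay on both sides of them, with replicates 2 and 4 above and 1 and 3 below, so that the mean difference of 0.18 ± 0.26 describes no liver of that group.

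The remaining elongases and desaturases lay nearer to each other. Elovl5, which elongates polyunsaturated chains, differed by -0.16 ± 0.15 and all 8 of its probe sets were lower, whereas all 10 of Fads1, the delta-5 desaturase, were higher (gene difference 0.11 ± 0.12). Fads2, the delta-6 desaturase, differed by 0.03 ± 0.11, Elovl1, which makes very long saturated chains, by -0.08 ± 0.12 and Elovl2, which extends polyunsaturated chains, by 0.06 ± 0.15. Elovl3 differed by -0.08 ± 0.28 at group means of 5.96 and 6.04, under the lower quartile of the probe sets on every array (6.47 to 6.52). For none of these 6 does the missed threshold show that the groups were alike.

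In triglyceride assembly and export 3 of 10 members passed as higher and 1 as lower. Gpam, the mitochondrial glycerol-3-phosphate acyltransferase that begins the pathway, read 11.55, 11.89, 11.65 and 11.51 in the Tak1/Casp8 livers and 11.01, 11.02, 11.06 and 10.95 in the Tak1/Rip3 livers. It was 1.56-fold higher (0.64 ± 0.10 SE, 4 livers a group, by limma an adjusted p = 0.00587). All 23 of its probe sets were higher, though 0 of them passed singly, and the gene passed without any single array (adjusted p up to 0.0243). Agpat2, the next acyltransferase, differed by 0.22 ± 0.10 and did not pass (limma adjusted p = 0.258).

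The lipins, phosphatidate phosphatases that make the diacylglycerol for triglyceride, comprised 2 members that passed and 1 that did not. Lpin1, which also serves as a transcriptional coactivator in liver, read 11.12, 11.53, 10.88 and 10.66 against 9.48, 10.40, 9.74 and 9.85. Every Tak1/Casp8 liver lay above every Tak1/Rip3 liver, and Lpin1 was 2.26-fold higher (1.18 ± 0.22 SE, 4 livers a group, by limma an adjusted p = 0.0117), the widest of the differences that passed on the higher side. All 25 probe sets were higher, by 0.80 to 1.86, and 9 of them passed singly. Lpin2, abundant in liver, read 10.90, 11.15, 10.73 and 10.96 against 10.32, 10.58, 10.55 and 10.45 and was 1.38-fold higher (0.46 ± 0.11 SE, limma adjusted p = 0.0338), with 21 of 22 probe sets higher. Its call passed in 2 of 8 fits that left out an array, those without Tak1/Rip3 replicate 2 or Tak1/Casp8 replicate 3 (adjusted p up to 0.101 in the others). Lpin3 differed by -0.09 ± 0.09, and its 22 probe sets were divided, 10 higher and 12 lower. Within each array, the differences of Lpin1 and Lpin2 exceeded that of Lpin3 by 1.27 ± 0.26 and 0.55 ± 0.12, beyond all Tak1/Rip3 livers in 4 of 4 Tak1/Casp8 livers (exact two-sided permutation p = 0.0286 each, the smallest that 4 against 4 allows, and 0.0571 after adjustment over the 12 gene pairs compared, so that neither passed). Lpin1 against Lpin2 gave 0.72 ± 0.21 (exact two-sided permutation p = 0.0571, adjusted 0.0857).

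Of the acyltransferases of the last steps, Mogat2 passed and Dgat1, Dgat2 and Mogat1 did not. Dgat2, which esterifies newly made fatty acid, read 12.28, 12.33, 12.02 and 12.52 against 11.87, 12.27, 12.20 and 11.93 and differed by 0.22 ± 0.13, while Dgat1, which shares the reaction, differed by -0.19 ± 0.13, with 16 of 17 probe sets lower. The groups overlapped for both, neither passed, and the contrast between them (0.41 ± 0.22, exact two-sided permutation p = 0.143) did not pass either. Mogat2, a monoacylglycerol acyltransferase best known from intestine, read 7.07, 7.15, 6.92 and 7.35 in the Tak1/Casp8 livers against 8.83, 8.28, 7.58 and 8.19 and was 2.14-fold lower (-1.10 ± 0.22 SE, 4 livers a group, by limma an adjusted p = 0.0162). Its 7 probe sets disagreed, from -2.24 to 0.16; the brightest was the single one that was not lower, so that the gene differed by 0.16 when that probe set stood for it. Mogat1, at means of 5.74 and 5.39 and so under the lower quartile, differed by 0.35 ± 0.26, and no comparison of Mogat2 with it is given.

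Mttp, the transfer protein that loads triglyceride onto apolipoprotein B for export, read 11.07, 11.32, 11.12 and 11.55 against 11.54, 11.37, 11.60 and 11.67. The difference of -0.28 ± 0.12 SE did not pass (limma adjusted p = 0.223), although all 19 of its probe sets were lower. Tak1/Casp8 replicate 4 lay within the Tak1/Rip3 range. Without it and Tak1/Rip3 replicate 2 the gene differed by -0.44 and passed (limma adjusted p = 0.0390). These were the highest Tak1/Casp8 and the lowest Tak1/Rip3 liver, so leaving them out had to widen the difference. Mttp passed in 1 of 19 alternatives of the processing, this omission, and in 0 of 8 fits that left out a single array (adjusted p 0.0750 to 0.412).

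Neither patatin-domain lipase passed. Pnpla2, adipose triglyceride lipase, which releases fatty acid from droplets, read 10.14, 9.86, 9.79 and 10.00 against 9.74, 9.94, 9.85 and 9.50. The groups overlapped and the difference was 0.19 ± 0.12 (limma adjusted p = 0.420), though all 12 probe sets were higher. Pnpla3, a droplet-bound lipase and acyltransferase, read 7.25, 8.00, 7.49 and 7.81 against 7.52, 7.82, 7.51 and 7.55 and differed by 0.04 ± 0.16.

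Among 9 droplet proteins 2 passed, both lower in Tak1/Casp8. Cidec (also called FSP27), which drives the fusion of droplets, read 7.20, 7.65, 7.15 and 8.07 against 8.99, 8.17, 9.23 and 9.55. It was 2.77-fold lower (-1.47 ± 0.29 SE, 4 livers a group, by limma an adjusted p = 0.0145), the widest difference of the 8 members that passed. All 6 probe sets were lower, 3 of them past the threshold, and the call stood in each of the 8 fits that left out an array (adjusted p up to 0.0458). The groups came closest in Tak1/Rip3 replicate 2 and Tak1/Casp8 replicate 4. These were the lowest Tak1/Rip3 and the highest Tak1/Casp8 liver, so leaving them out had to widen the difference. Without that pair it was -1.92 (limma adjusted p = 0.00135), which adds no support to the call.

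Plin2, the perilipin that coats most hepatocyte droplets, read 11.76, 12.01, 11.74 and 12.01 against 12.35, 12.12, 12.70 and 12.61 and was 1.48-fold lower (-0.57 ± 0.14 SE, 4 livers a group, by limma an adjusted p = 0.0375). Of its 11 probe sets 9 were lower, and 0 passed singly. The mean over the 11, which takes in a dim one that was 1.06 higher, gave -0.31 (limma adjusted p = 0.247). The call passed in 2 of 8 fits that left out an array, those without Tak1/Rip3 replicate 2 or Tak1/Casp8 replicate 4 (adjusted p up to 0.109 in the others), and it was at the threshold when each array was shifted to one median (0.0502).

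The other droplet genes had differences of either sign and none passed. Plin3, a perilipin found in many tissues, differed by 0.05 ± 0.11, Plin4, which is best known from adipose tissue, by 0.25 ± 0.19, and Plin5, the perilipin of oxidative tissues, by 0.09 ± 0.16. Cideb, the CIDE protein of hepatocytes that takes part in loading lipoprotein, differed by 0.00 ± 0.09 and was among the steadiest members, with values between 12.48 and 12.70. Cidea differed by 0.47 ± 0.20 at means of 5.79 and 5.32, under the lower quartile. Fitm1 and Fitm2, membrane proteins that help droplets bud from the endoplasmic reticulum, differed by 0.45 ± 0.38 and -0.15 ± 0.13. The difference of Cidec less that of Cideb was -1.47 ± 0.36, and that of Plin2 less that of Plin3 was -0.62 ± 0.14 (exact two-sided permutation p = 0.0286 each, adjusted 0.0571, with 4 of 4 livers beyond the other group). For Plin2 against Plin5 (-0.65 ± 0.20, p = 0.0571) and Plin4 (-0.82 ± 0.30, p = 0.0857) the same exact permutation test gave larger values. Of the 12 pairs compared, none passed after adjustment.

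**Figure D3:**
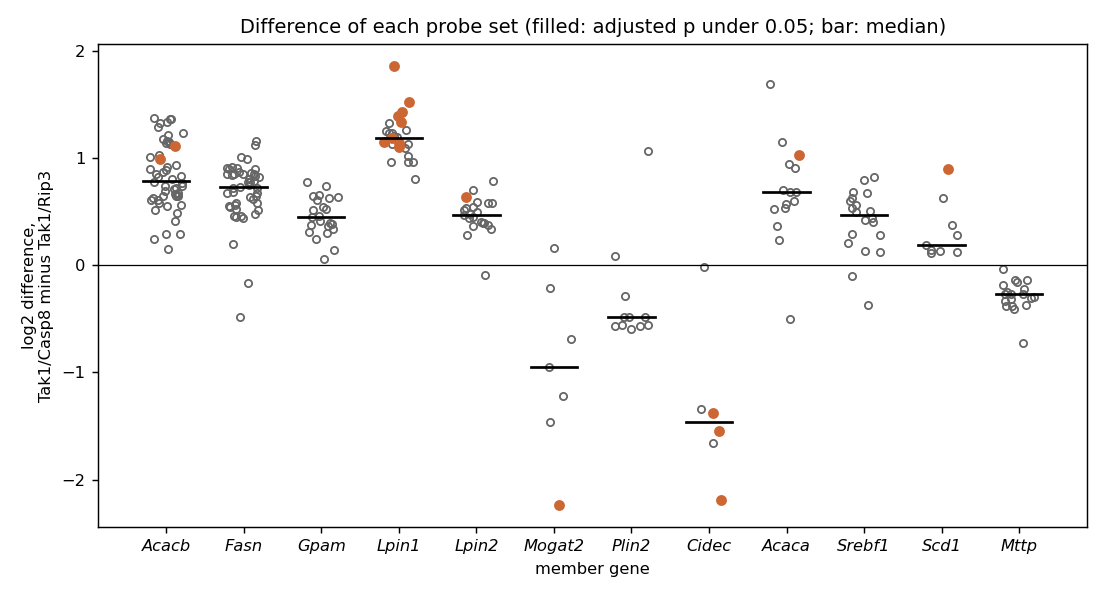
Log2 difference (Tak1/Casp8 minus Tak1/Rip3) of every probe set of the 8 members that passed and of Acaca, Srebf1, Scd1 and Mttp, filled where the adjusted p over all probe sets was under 0.05, with the median as a bar. All probe sets of Acacb, Gpam, Lpin1 and Scd1 lie above 0 and all of Cidec and Mttp below it, whereas those of Mogat2 run from -2.24 to 0.16.

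Over all members there were 524 probe sets, from 2 to 52 per gene. In the probe set test 19 of the 524 passed (3.63%, against 1.64% of all 206316), 15 higher and 4 lower, and 9 of these belonged to Lpin1. At an unadjusted p under 0.05 there were 210 (40.1%, against 15.6%). In 15 members all probe sets lay on one side of 0, and the share over all genes was not computed. They include Thrsp, Fitm1 and Fitm2, with 2 probe sets each, and members that did not pass, such as Elovl5 and Fads1. Probe sets of one gene share its transcript and are not independent.

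The livers of the Tak1/Casp8 group differed among themselves in a way shared by most members. In 26 of the 37 members (70.3%, against 24.3% of all genes) replicates 2 and 4 held the 2 highest values of that group. The mean deviation over the 37 members from their 8-array means was 0.26 and 0.28 in these livers and -0.08 and -0.13 in replicates 1 and 3, against -0.14 to -0.05 in the Tak1/Rip3 livers. For fatty acid synthesis alone it was 0.45 and 0.64 in replicates 2 and 4, and -0.15 and 0.05 in replicates 1 and 3. In the Tak1/Rip3 group no pair of livers was highest in more than 8 of the 37. The members' spread within groups was therefore partly shared, and the values of different members are not independent observations.

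**Figure D4:**
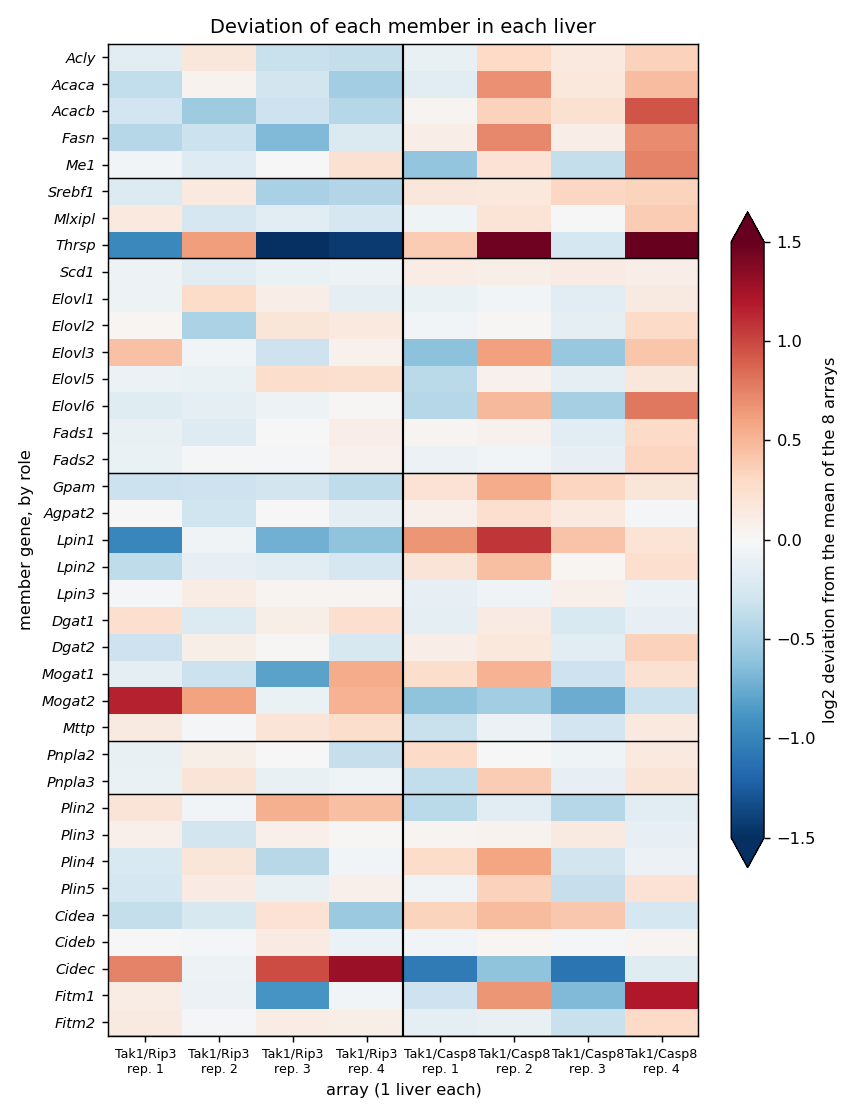
Deviation of each member (rows, by role, separated by lines) in each liver (columns) from its mean over the 8 arrays, in log2 units, with colours saturating at the ends of the scale. Replicates 2 and 4 of the Tak1/Casp8 group are red in most rows of fatty acid synthesis, the regulators and Elovl6, whereas Cidec and Plin2 are blue across all 4 Tak1/Casp8 livers.

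Clock genes and fasting genes, which share daily and feeding rhythms with lipogenesis, were set beside these values. None of 14 clock genes passed between the groups, but single livers stood apart. Npas2, a partner of the clock factor BMAL1, read 7.18 in Tak1/Rip3 replicate 2 against 8.93 to 9.51 in the rest of its group, and 6.29 in Tak1/Casp8 replicate 4 against 7.82 to 8.54. These 2 arrays stood apart in more than clock genes. Each had the lowest mean correlation with its own group (0.987 and 0.985) and the highest lower quartile of gene values in it (6.31 and 6.36). Without both of these livers 9 members passed in place of 8, against 7.44% of all genes. Acacb, Gpam, Lpin1, Srebf1 and Thrsp were higher, and Mogat2, Plin2, Cidec and Mttp were lower. Fasn (0.74, limma adjusted p = 0.0559) and Lpin2 (0.0586) missed the threshold. Tak1/Rip3 replicate 2 was the highest liver of its group for Srebf1, Thrsp and Lpin1, and the lowest for Mttp, Plin2 and Cidec. Leaving it out had to widen each of these differences, so the new passes of Srebf1, Thrsp and Mttp add no support. Of 10 measured fasting genes 4 passed (40%, against 6.69% of all genes). The means of 6 were lower in Tak1/Casp8 and 3 of these passed. They were Pdk4 (-1.22 ± 0.18 SE), which restrains pyruvate oxidation, and the fatty acid hydroxylases Cyp4a10 (-1.69 ± 0.32) and Cyp4a14 (-2.92 ± 0.70), both targets of PPARalpha. The coactivator Ppargc1a passed as higher (0.81 ± 0.19). Pck1 (0.49 ± 0.14), Igfbp1 (0.99 ± 0.53) and Fgf21 (0.07 ± 0.13) also had higher means and did not pass. In Tak1/Casp8 replicate 4 Cyp4a14 read 11.40, within the Tak1/Rip3 range, against 7.46 to 8.79 in the rest of its group. The part of feeding state, hour of collection and PPARalpha activity in the members' differences was not tested.

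Markers of other cells moved between the groups as well. Each of the 7 measured proliferation markers was lower in Tak1/Casp8 and passed the gene test (100%, against 6.69% of all genes). Their median difference was -1.57, and their summed log2 level was 51.2 to 60.6 against 65.5 to 71.6. All 8 stellate cell markers had negative differences (median -0.38) and 2 passed (25%), Lrat and Reln. Their summed level was 75.3 to 81.0 against 81.1 to 83.5. Of 10 macrophage markers 5 had negative differences and 2 passed (20%), Trem2 and Gpnmb, which mark lipid-laden macrophages. The summed level of the 10 was 98.3 to 103.1 against 100.2 to 104.3. Macrophages and stellate cells also hold lipid droplets, and their part in the lower Plin2 and Cidec was not tested. Of 7 cholangiocyte and progenitor markers Spp1 passed as higher and Prom1 as lower (28.6%). Of 5 B and plasma cell markers Jchain passed as higher and Cd79a and Ms4a1 as lower (60%). No marker of endothelium, neutrophils, T and NK cells or erythroid cells passed. Adipoq, the defining gene of adipocytes, read 3.60 to 4.57 in all 8 arrays, far under the lower quartile. Of the 7 adipocyte markers Car3, which hepatocytes also express, was the only one that passed, and it was lower (summed level of the list 48.1 to 53.2 against 50.4 to 52.6).

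Beyond the members, 72 other genes of the pathway were listed by role and 69 were measured. Of these 4 passed as higher and 2 as lower in Tak1/Casp8, 8.70% against the 6.69% of all genes, with a median difference of 0.04. Acss2, which makes acetyl-CoA from acetate and is an SREBP target, read 11.29, 11.50, 11.22 and 11.94 against 10.48, 10.63, 10.48 and 10.64 and was 1.90-fold higher (0.93 ± 0.15 SE, 4 livers a group, by limma an adjusted p = 0.00617). The acyl-CoA synthetase Acsl3, which activates fatty acid at growing droplets, was 1.75-fold higher, the elongase Elovl7 was higher by 0.68 ± 0.17 and the droplet enzyme Hsd17b13 1.31-fold. Tm6sf2, which takes part in the lipidation of lipoprotein, was 1.47-fold lower and the transcription factor Usf1, which binds E-boxes of lipogenic promoters, 1.45-fold lower. None of 9 genes of triglyceride hydrolysis passed, with 2 of 9 differences positive. By role, 1 of 8 genes of carbon and NADPH supply passed, 1 of 14 genes of SREBP and ChREBP control, 1 of 13 further elongases and desaturases, 1 of 5 acyl-CoA synthetases, 1 of 11 further assembly and export genes and 1 of 9 further droplet genes.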

How the data were processed

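Total RNA of snap-frozen liver was amplified, biotin-labelled and hybridised to 1 array per mouse, per the labels' protocols. The authors deposited log2 intensities per probe set, for which the submitters' processing notes name RMA and no version. RMA removes shifts shared by most genes and compresses differences near background. Of 223771 probe sets 206316 carried exactly 1 gene symbol in the platform annotation, 3734 several and 13721 none; 1 probe set naming a member beside another gene was left out. Old symbols (2571) were updated through a RefSeq gene table, and 19456 of 19560 symbols matched it. No source used here gives the build behind the probe sets.

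Genotype labels set the groups, and replicate numbers name arrays only. A gene's value is the median over its probe sets, with no filter on dim genes. limma 3.58.1 in R 4.3.3 compared the groups on the 8 arrays with a single group term (lmFit, eBayes, two-sided; Benjamini-Hochberg over all genes, or all probe sets). The ± values beside a difference are SE. Differences between related genes were tested by exact permutation of the 8 arrays (70 splits), adjusted over 12 pairs, and the ± there is an unmoderated SE. Nothing in the labels says that a batch, litter or scan differed, so none was tested. In simulated data on 19560 genes the gene test recovered 38.8% of changed genes for a log2 change of 0.5, 96.3% for 1 and 100% for 2. The simulated noise was independent between genes and equally wide in both groups. Members here shared part of their spread, so these rates may not hold for the real arrays.

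The members, lists and tests were chosen with earlier results of these data known. All members are named; values of every array are given for members that passed, for the 2 largest differences of each role and for 10 well-known members; partner genes are those that passed. The gene pairs, and the omission of both livers with the lowest Npas2 of their group, were chosen once the data had been examined. Alternatives were 2 normalisations between arrays, 3 summaries of probe sets, 2 filters on level, 3 variance models, 2 thresholds and the omission of each array. Promoter windows come from RefSeq, GRCm38.p6. Figures were drawn with matplotlib 3.10.9.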

Additional observations from a re-analysis of the deposited data

Results flagged for a closer look

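Each group of 4 livers was examined for a value far from the other 3 (Dixon's test) in the 37 members and the 6 other pathway genes that passed. Of 86 such groups 2 were flagged, 2.33%, where chance gives about 1 in 20. Pnpla3 read 7.82 in Tak1/Rip3 replicate 2, above the 7.51 to 7.55 of the other 3 livers of that group. The same liver held the highest value of its group for Thrsp (9.89), Srebf1 (10.48) and Lpin1 (10.40), without reaching Dixon's limit. Acsl3 read 10.07 in Tak1/Casp8 replicate 2, above the 9.44 to 9.49 of the rest of its group.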

How the results depend on the processing

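Over 19 alternatives run on the single members (693 values, fewer where a filter removed a dim member), 601 kept direction and side of the 0.05 threshold, 37 fell short of it, 15 newly passed and 40 changed sign; 23 members never changed sign. Gpam, Lpin1 and Cidec passed in 18 of 19 each and failed only Welch's test (adjusted p 0.0992, 0.113 and 0.134). The cause of the changes below was not tested. Members that passed numbered 8, but 3 with the brightest probe set, 0 with Welch's test (10 at an unadjusted p under 0.05), 1 at an adjusted p under 0.01, and 4 to 9 when an array was left out. Other pathway genes numbered 6, but 0 with Welch's test (13 unadjusted), 1 at 0.01, and 2 to 6 with an array left out. All genes numbered 1308, but 759 with the brightest probe set, 115 with Welch's test, 406 at 0.01, 2130 at 0.10, and 706 to 1347 with an array left out. Member probe sets numbered 19, but 42 and 54 above the 30th and 50th percentile of level, 61 with trend and robust settings, 66 with array weights, 36 without Tak1/Rip3 replicate 2 and Tak1/Casp8 replicate 4 together, 0 with Welch's test (180 unadjusted), 0 at 0.01, 60 at 0.10, and 0 to 29 with an array left out. Sign changes under the mean over probe sets were Agpat2 -0.0428, Elovl2 -0.0368, Elovl6 -0.0254 and Cideb 0.01; under the brightest probe set Mogat2 0.16, Mogat1 -0.15, Elovl2 -0.0867, Fads2 -0.0037, Lpin3 0.0155 and Cideb 0.0137; under the brighter probe sets Pnpla3 -0.14, Elovl2 -0.0647 and Mogat1 -0.0415; under array weights Me1 -0.17, Elovl2 -0.0734 and Fads2 -0.0313; under a shift to one median Cideb 0.0387. Without both arrays named above they were Me1 -0.31, Elovl2 -0.17, Elovl6 -0.0683, Fads2 -0.0686 and Fads1 -0.0196. With an array left out, signs changed in Me1 (-0.25 to 0.20), Elovl2 (-0.0868 to 0.13), Elovl3 (-0.30 to 0.12), Elovl6 (-0.054 to 0.38), Fads2 (-0.0687 to 0.0801), Pnpla3 (-0.0793 to 0.17), Plin3 (-0.0341 to 0.0982), Plin5 (-0.0168 to 0.22) and Cideb (-0.0329 to 0.04). Mogat2 was the single member that passed and changed sign. No paired analysis was possible because the labels give the groups no shared replicate numbers. Dim signal limits Elovl3, Mogat1 and Cidea.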
